A study of Mus musculus with 44 samples.

Results

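The left hippocampus was compared with the right hippocampus in exercised mice, gene by gene, in 6 of the 44 RNA samples of the study. The 6 libraries were chosen by their labels: 3 left hippocampi (mice TG7.3.2, TG9.2.2 and TG9.1.4) and 3 right hippocampi (mice TG9.1.3, TG9.2.1 and TG7.3.1), all from early-life exercise (ELE) and all from tissue processed for RNA apart from nuclei. Every mouse was a male carrying the Emx1-Cre and NuTRAP alleles, in which cells that have expressed Emx1 carry a GFP-tagged ribosomal protein and a labelled nuclear envelope. The Cre follows the Emx1 promoter, so excitatory forebrain neurons were the main cells labelled, with progenitors and some astrocytes also marked. ELE mice lived in pairs with free access to a running wheel between postnatal days 21 and 41, and tissue was taken on the day after. Sedentary mice of the same litters and the same genotype, kept in standard cages, gave 3 left and 3 right libraries that served as the comparison group. From each mouse a single hippocampus was used for RNA, by pulling down the tagged ribosomes with their bound mRNA (TRAP), and the opposite side was used for nuclei. The left and the right libraries therefore came from different mice, and differences between sides and differences between these individual mice cannot be told apart beyond the spread within a side.

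The hippocampus of each hemisphere holds the same trisynaptic circuit, in which granule cells of the dentate gyrus excite CA3 pyramidal cells, which in turn excite CA1. In mice, CA3 axons from the left and from the right side form synapses with different glutamate receptor content, and class I MHC proteins and the receptor PirB are known to take part in that asymmetry. Ribosome-bound mRNA reports which transcripts are being translated in the labelled cells, and says nothing of where in the cell a receptor is placed.

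Between 50436108 and 65767802 counts were deposited for each of the 6 libraries, and a library with 3 counts of a gene lay between 0.0461 and 0.0603 CPM, the counts scaled to the size of the library. All CPM values were scaled with TMM factors, between 0.9876 and 1.03. Libraries correlated closely across genes whether they came from the same side (Spearman rho 0.9776 to 0.9873 among left, 0.9856 to 0.9888 among right) or from opposite sides (0.9807 to 0.9904), and the sides did not separate on the first principal component, which held 42.7% of the variance over 14115 genes. That component set left TG9.1.4 apart, at 38.8 against values from -22.5 to 10.8 for the other 5 libraries. Of the same 14115 genes, 98 were at least 2-fold higher in left TG9.1.4 than in every other library and 40 in left TG7.3.2, against at most 2 in any of the other 4. At least 2-fold lower than in every other library were 24 genes in right TG9.1.3, 18 in left TG9.1.4 and 2 to 8 in each of the rest. Right TG9.1.3 had the most counts but the fewest genes with counts, 19642 against 20818 to 22059. Transcripts of the main labelled cell type were abundant on both sides. Those of astrocytes were abundant too, with 16 markers summed at 10800 to 14300 CPM on the left and 12400 to 13900 CPM on the right. Slc17a7, the vesicular glutamate transporter of excitatory forebrain neurons, lay at 3224, 3542 and 4011 CPM on the left and at 3623, 3999 and 3849 CPM on the right.

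Few genes differed between the sides. Of 17696 genes tested, 151 (0.853%) were higher on the left and 90 (0.509%) higher on the right at an unadjusted p under 0.05 and a change above 1.3-fold, the rule by which genes are called throughout. An unadjusted p under 0.05 was reached by 338 genes (1.91%), below the 5% that the level of the test allows. After Benjamini-Hochberg adjustment over all genes, no gene passed in edgeR's quasi-likelihood test, and 3 genes passed in DESeq2: Fam163b (adjusted p = 0.00965), Nos1 (adjusted p = 0.0143) and St6galnac2 (adjusted p = 0.0233), the last with 157 counts over the 6 libraries and below the filter of edgeR. The called genes were mostly of low abundance, with a median of 2.68 CPM for those higher on the left and 2.35 CPM for those higher on the right, against 13 CPM over all genes tested. Protein-coding genes made up 131 of the 151 and 63 of the 90. Left and right values were fully separated in 109 of the 151 and 77 of the 90, against 6.83% of all genes tested. With 3 libraries a side the smallest p of a two-sided exact permutation test is 0.1, so that no single gene can pass 0.05 by it.

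**Figure D1:**
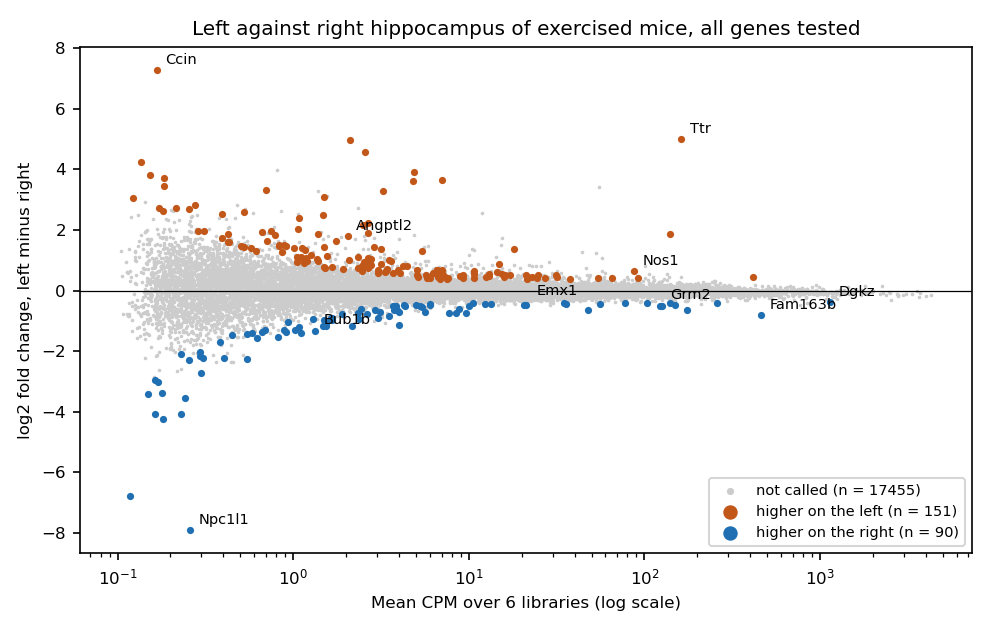
Log2 fold change (left minus right) against mean CPM over the 6 exercised libraries (log scale), 1 point per gene tested, with called genes coloured by direction. The 151 and 90 called genes lie mostly at low CPM, and Nos1 and Fam163b stand out among abundant genes.

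Among called protein-coding genes of at least 1 CPM whose sides did not overlap, the 14 with the smallest p that were higher on the left differed by 1.31- to 3.47-fold. The choice of genes without overlap fixes the exact permutation p of each at 0.1, the smallest it can be. The same holds for the right-higher genes chosen in this way below. In edgeR none passed adjustment, and in DESeq2 Nos1 was the only one of the 14 that did. Nos1, the neuronal nitric oxide synthase, led them. It lay at 117.7, 87.8 and 114.8 CPM in the left libraries and at 68.7, 67.6 and 69.0 CPM in the right ones. The lowest left library was above every right library, and the right libraries were nearly equal, for a log2 fold change of 0.64 ± 0.12 (SE), or 1.56-fold (exact permutation p = 0.1, unadjusted edgeR p = 0.000469, adjusted p = 0.999849). Tshz1, a zinc-finger transcription factor, was at 41.6, 34.7 and 35.4 CPM on the left against 25.9, 24.3 and 27.5 CPM on the right (1.44-fold, log2 fold change 0.52 ± 0.11). Lrrk2, the large kinase mutated in familial Parkinson's disease, was at 16.8, 17.1 and 19.0 CPM against 9.92, 11.3 and 13.2 CPM (1.54-fold, log2 fold change 0.62 ± 0.15). Both showed a gap between the sides that was wider than the range within either side. Cyp26b1, which breaks down retinoic acid, was at 19.3, 17.0 and 19.0 CPM on the left and at 12.1, 12.1 and 13.8 CPM on the right (1.46-fold, log2 fold change 0.54 ± 0.13). Tmem163, a zinc transporter of synaptic vesicles, was at 14.2, 10.4 and 14.5 CPM against 8.89, 7.0 and 9.32 CPM (1.55-fold, log2 fold change 0.63 ± 0.19). Its lowest left library was close to its highest right library.

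Igfbp7, Angptl4 and Angptl2 encode secreted proteins. Igfbp7, which binds insulin-like growth factors, was at 4.03, 2.64 and 4.23 CPM on the left against 1.88, 1.73 and 1.55 CPM on the right (2.11-fold, log2 fold change 1.08 ± 0.28). Angptl4, a secreted inhibitor of lipoprotein lipase, was at 3.97, 2.74 and 4.55 CPM against 2.23, 1.53 and 1.73 CPM (2.05-fold, log2 fold change 1.04 ± 0.29). Its relative Angptl2 was at 4.2, 1.51 and 3.82 CPM against 0.400, 1.41 and 0.944 CPM (3.47-fold, log2 fold change 1.80 ± 0.53), with the second left library barely above the highest right library. For all 3 of these genes left TG9.2.2 was the lowest left library. Mest, an imprinted gene expressed from the paternal allele, was 1.42-fold higher on the left (18.8 ± 2.76 against 13.25 ± 0.42 CPM, mean ± SD of 3 libraries here and where not said otherwise). The adhesion receptor gene Adgra1 was 1.32-fold higher, at 104 ± 14 against 79.0 ± 5.22 CPM, and Bod1l, whose protein protects replication forks, 1.31-fold, at 42.7 ± 5.53 against 32.5 ± 1.43 CPM. Ipcef1, whose protein binds cytohesin exchange factors, was at 30.6, 31.4 and 30.6 CPM on the left and at 26.95, 21.9 and 21.2 CPM on the right. Spa17 (2.18-fold) and the acid phosphatase gene Acp7 (2.24-fold) were at low levels, with left means of 3.19 and 1.755 CPM. The calls of Adgra1 and Bod1l were each lost without left TG7.3.2, left TG9.1.4 or right TG7.3.1 (log2 fold changes of 0.34 to 0.36 and of 0.31 to 0.37). That of Ipcef1 was lost without right TG9.2.1 or TG7.3.1 (0.36 and 0.34) and in the fit to all 12 exercised and sedentary libraries (0.40).

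The 14 right-higher genes chosen in the same way differed by 1.31- to 2.63-fold. Fam163b, a membrane protein of little known function, had the smallest p among them. It lay at 373, 391 and 252 CPM on the left against 549, 680 and 537 CPM on the right, with no overlap, for a log2 fold change of -0.80 ± 0.17 (SE), or 1.74-fold higher on the right (exact permutation p = 0.1, unadjusted edgeR p = 0.00107, adjusted p = 0.999849). Inf2, a formin that assembles and severs actin filaments, was at 107, 132 and 172 CPM on the left and at 192, 219 and 226 CPM on the right (1.55-fold, log2 fold change -0.63 ± 0.16). Prss12, the neurotrypsin that cleaves agrin at synapses, was at 38.3, 37.0 and 37.0 CPM on the left and at 55.0, 74.5 and 44.0 CPM on the right (1.54-fold, log2 fold change -0.63 ± 0.17). For Prss12 the left libraries were nearly equal and the right ones spread widely. Il1rap, the accessory chain of the interleukin-1 receptor, was at 32.7, 29.8 and 28.0 CPM against 42.1, 37.2 and 44.4 CPM (1.37-fold, log2 fold change -0.45 ± 0.11). Cacna1h, a T-type calcium channel, was at 80.5, 92.0 and 129 CPM against 131, 150 and 151 CPM (1.43-fold, log2 fold change -0.52 ± 0.16). The highest left library of Cacna1h, TG9.1.4, nearly reached the lowest right library.

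Signalling genes were among the other right-higher genes. Dgkz, the diacylglycerol kinase zeta that ends diacylglycerol signals, was at 809, 1043 and 1097 CPM on the left and at 1202, 1403 and 1268 CPM on the right (1.31-fold, log2 fold change -0.39 ± 0.12). Nr3c2, the mineralocorticoid receptor that binds corticosterone in hippocampal neurons, was at 189, 246 and 237 CPM against 267, 330 and 288 CPM (1.32-fold, log2 fold change -0.40 ± 0.12). Both calls were lost without left TG7.3.2, the lowest library of each gene, where the log2 fold changes became -0.27 and -0.29, and also without right TG9.2.1, the highest library of each. Sgk2, a kinase related to the glucocorticoid-induced Sgk1, was 2.63-fold higher on the right but low, at 0.612 ± 0.214 against 1.62 ± 0.391 CPM. Bub1b, a spindle checkpoint kinase, was 2.5-fold higher, at 0.764 ± 0.186 against 1.92 ± 0.454 CPM. Lrrc10b (1.31-fold), the lysosomal Plbd2 (1.32-fold) and the predicted gene Gm10638 (1.86-fold) also belonged to the group, and Cnih3 and Grm2 are described with the glutamate receptors. The call of Lrrc10b was lost without left TG7.3.2, right TG9.1.3 or right TG7.3.1 (-0.37 to -0.32), that of Plbd2 without left TG7.3.2, right TG9.2.1 or right TG7.3.1 (-0.37 to -0.32), and that of Sgk2 without right TG7.3.1 (-1.18). For Gm10638, reads shared with similar sequences elsewhere could not be checked.

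**Figure D2:**
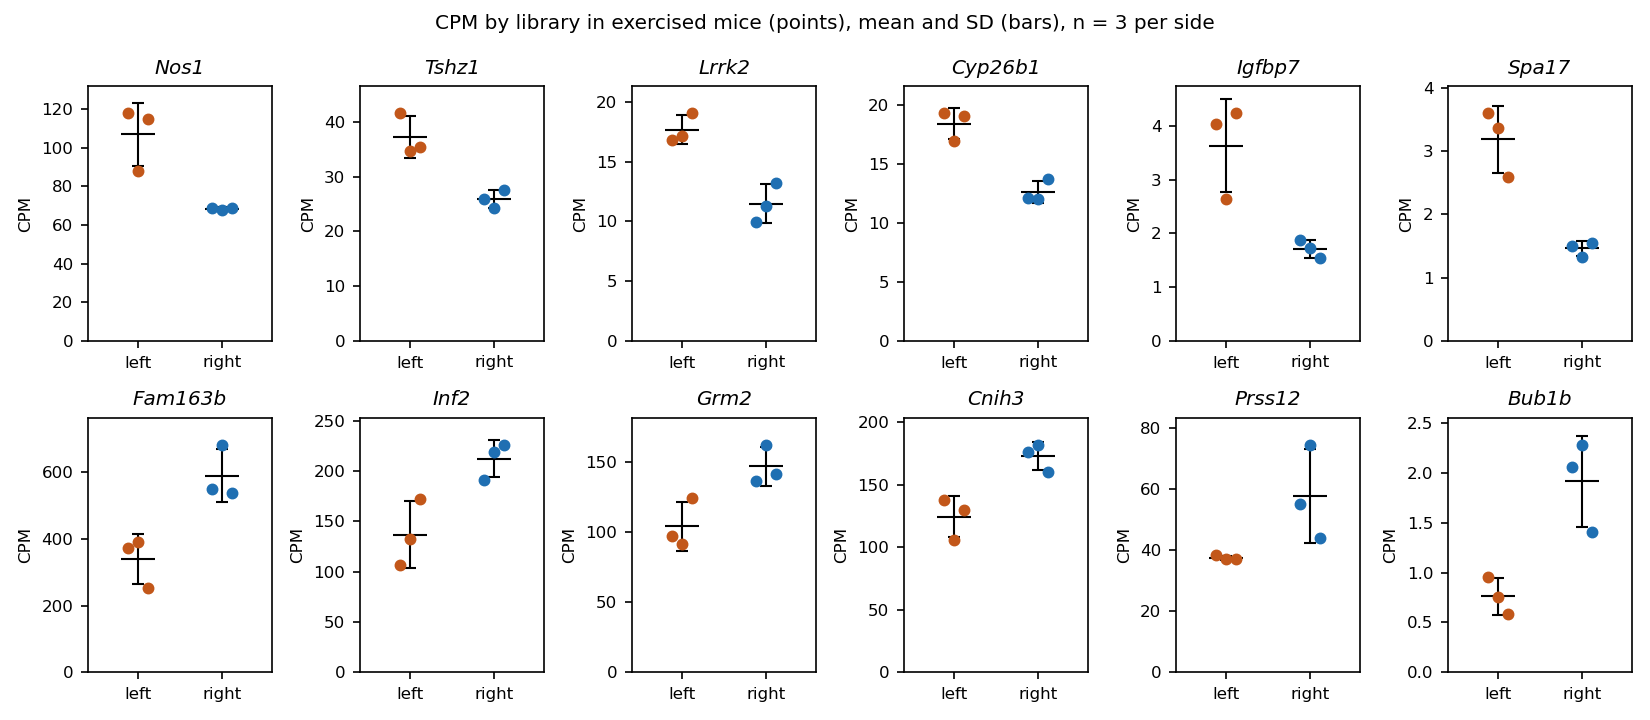
CPM in each of the 6 exercised libraries for 12 genes, with points for libraries (left, orange, and right, blue) and bars for the mean and SD of 3 libraries. The upper row holds genes higher on the left and the lower row genes higher on the right, and in none of the 12 do the sides overlap, which was part of how they were chosen.

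The 3 largest changes in each direction were those of Ccin, Ttr and Tmem72 on the left and of Npc1l1, Vmn2r86 and Gm2367 on the right. Ttr and Tmem72 are described with the choroid plexus genes. The other 4 had at most 3 counts in each library of 1 side and less than 1 CPM on the other. Ccin, which encodes a protein of the sperm head, was at 0.415, 0.193 and 0.395 CPM on the left and had no count on the right, which makes it at least 6.28-fold higher on the left against 3 counts per library. Npc1l1, the intestinal cholesterol transporter, had no count on the left and 0.999, 0.196 and 0.362 CPM on the right, at least 10.0-fold higher. The vomeronasal receptor gene Vmn2r86 likewise had no count on the left and 0.231, 0.178 and 0.301 CPM on the right, at least 4.57-fold higher, and its family shares much sequence. The pseudogene Gm2367 was at 0.0462, 0 and 0 CPM against 0.400, 0.285 and 0.362 CPM. The fitted fold changes of these 4 genes depend on the prior count and are not given.

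Genes for glutamate receptors were examined because receptor content is the known asymmetry of the hippocampus. For this and the lists below, the shares over all genes tested were 0.853% called higher on the left and 0.509% on the right. At these shares a short list is often without a call. Of 15 tested AMPA receptor subunit and auxiliary genes, 1 was called, Cnih3, whose cornichon protein escorts AMPA receptors and slows their closing. It was at 138, 106 and 130 CPM on the left and at 176, 182 and 160 CPM on the right (1.39-fold, log2 fold change -0.47 ± 0.11), and the call was lost without left TG9.2.2, at -0.37. Its relative Cnih2 was at 1084, 1215 and 1081 CPM against 1319, 1281 and 1500 CPM, also without overlap, with a log2 fold change of -0.28 below the 1.3-fold limit. Gria1, the first of the 4 pore-forming subunits, was at 1077, 1116 and 913 CPM on the left and at 1111, 1156 and 1205 CPM on the right, with overlap and a log2 fold change of -0.16 ± 0.09. Gria2, Gria3 and Gria4 had log2 fold changes of -0.14, -0.22 and 0.08, and their sides overlapped too. The median log2 fold change over the 15 genes was -0.0809, against 0.00666 over all genes tested, and their summed level was 3760 to 4110 CPM on the left and 4250 to 4560 CPM on the right.

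No NMDA receptor gene of 7 was called. Grin1, the obligatory subunit, had a log2 fold change of -0.12 ± 0.08 (444 ± 30.2 against 481 ± 29.0 CPM), Grin2a one of -0.20 ± 0.11 (338 ± 50.3 against 389 ± 23.9 CPM), and Grin2b one of -0.0026 ± 0.14 (728 ± 125 against 730 ± 92.9 CPM). The values of Grin2b on the 2 sides spanned the same range, from 617 to 864 and from 637 to 822 CPM. Among 12 kainate and metabotropic receptor genes, Grm2 alone was called. It encodes the presynaptic receptor mGluR2, which lowers glutamate release, and lay at 97.2, 91.6 and 124 CPM on the left and at 137, 163 and 142 CPM on the right (1.41-fold, log2 fold change -0.49 ± 0.13). The medians of these lists, -0.166 and -0.0269, lay within 0.2 of 0, as did those of 32 of the 37 lists examined.

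Class I MHC genes and their receptors gave no call among 13 tested, with a median of 0.0474. B2m, the light chain of all class I proteins, was at 47.3, 43.4 and 42.2 CPM on the left and at 41.9, 46.1 and 48.7 CPM on the right. H2-K1 was at 12.1 ± 1.90 against 11.3 ± 1.29 CPM and H2-D1 at 21.99 ± 1.82 against 21.95 ± 1.11 CPM, both from a family of similar genes whose reads can be hard to assign. Pirb was scarcely detected, at 0, 0.105 and 0.226 CPM on the left and at 0.20, 0.249 and 0.241 CPM on the right. The sides overlapped for each of these 4 genes. Of 14 tested genes of embryonic left-right patterning, 1 was called. Lefty1, a Nodal antagonist that acts on the left of the early embryo and that also marks CA1 cells, was at 15, 22.8 and 13.9 CPM on the left and at 21.7, 24.9 and 25.2 CPM on the right (log2 fold change -0.47 ± 0.19). Its left TG9.2.2 library lay among the right ones, and the call was lost without left TG7.3.2, left TG9.1.4, right TG9.2.1 or right TG7.3.1 (-0.44 to -0.34).

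Of 39 activity-regulated genes tested, 1 was called, the nuclear receptor gene Nr4a1, at 44.5, 55.1 and 42.6 CPM on the left and at 83.8, 53.6 and 55.4 CPM on the right (log2 fold change -0.44 ± 0.18). Right TG9.1.3 was the highest library, the others overlapped between the sides, and the call was lost without it, at -0.20, and without left TG7.3.2 or left TG9.1.4, at -0.40 and -0.37. Fos ranged from 6.85 to 34.5 CPM on the left and from 8.58 to 24.8 CPM on the right, and Arc from 85.9 to 198 CPM and from 49.9 to 213 CPM. Bdnf, the neurotrophin, was at 63.2, 78.5 and 115 CPM against 77.7, 88.2 and 78.3 CPM. Arc, with a log2 fold change of 0.13 ± 0.51, was called without right TG9.1.3, at 0.95. None of the 19 circadian clock genes was called with all libraries. Arntl, the core activator, was at 44.3 ± 1.77 against 45.6 ± 1.48 CPM, while its targets Per2 (16.2 ± 6.10 against 17.4 ± 3.37 CPM), Dbp (23.9 ± 9.98 against 27.1 ± 4.43 CPM) and Nr1d1 (71.5 ± 10.1 against 86.6 ± 9.76 CPM) varied more and overlapped. Per2 was called without left TG9.1.4, where its log2 fold change of -0.10 became -0.45, and Nr1d1 without left TG7.3.2, where -0.28 became -0.39. Nr3c2 was the only call among 15 glucocorticoid-responsive genes.

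No gene on the list of general excitatory forebrain neuron markers was called with all libraries. Of 13 tested, 12 had a negative log2 fold change, with a median of -0.138 that stayed between -0.192 and -0.114 when each library was left out. Their summed level was 13300, 14100 and 13800 CPM on the left and 14900, 14800 and 15900 CPM on the right, without overlap. Emx1, the gene whose promoter drives the Cre, was at 19.4, 19.7 and 18.1 CPM on the left and at 23, 25.4 and 24.9 CPM on the right (log2 fold change -0.36 ± 0.11), without overlap and below the 1.3-fold limit, and it was called without left TG9.2.2 or right TG9.1.3, at -0.38 and -0.40. In bulk samples, fewer cells of a type and less RNA per cell cannot be told apart. Of 12 CA1 genes, 9 had a negative log2 fold change. Their median of -0.0975 stayed between -0.217 and -0.0192 when each library was left out. The median was -0.0404 for 18 dentate granule cell genes (10 negative, -0.0754 to -0.00158 in those fits). For 17 CA2 and CA3 genes it was 0.0736 (8 negative, -0.0691 to 0.075). Each of these lists had 1 call. In the dentate list it was Dock10, at 37.6, 42.9 and 28.8 CPM on the left and 21.1, 27.1 and 32.5 CPM on the right, which overlap. Dock10 was not called without left TG7.3.2, left TG9.2.2, right TG9.1.3 or right TG9.2.1, at 0.29 to 0.44. The call among CA1 genes was Lefty1. Among CA2 and CA3 genes it was Csf2rb2, a cytokine receptor chain, at 0.308, 0.281 and 0.188 CPM on the left and at 0.0154, 0 and 0.0201 CPM on the right.

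Markers of tissue that borders the hippocampus were unevenly distributed among the left libraries. All 14 tested choroid plexus genes had a positive log2 fold change, with a median of 2.81, and 4 were called (Ttr, Tmem72, Folr1 and Clic6). Ttr, the thyroxine carrier that choroid plexus secretes into cerebrospinal fluid, was at 906, 34.9 and 2.82 CPM on the left and at 2.28, 7.94 and 19.6 CPM on the right. Left TG7.3.2 stood far above the rest, left TG9.1.4 lay among the right libraries, and the two-sided exact permutation p was 0.4. The summed level of the list was 1080 CPM in left TG7.3.2 and 65.7, 41.7, 26.4, 47.9 and 59.7 CPM in the other libraries. Clic6, Otx2, F5, Slc4a5 and Col8a1 had no count in at least 1 library. Without left TG7.3.2 the median of the list was 0.158 and none of the 4 calls held. Each of the 4 was also lost without right TG9.1.3 or right TG9.2.1, with log2 fold changes between 2.67 and 4.94. The calls of Tmem72 and Clic6 were lost in DESeq2 as well (4.93 and 3.64), and that of Clic6 without right TG7.3.1 (3.93). Igf2, a growth factor of meninges and choroid plexus, followed the same library, at 3.19, 0.422 and 0.226 CPM on the left against 0, 0.107 and 0.281 CPM.

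The other non-neuronal lists shifted less. All 11 tested meningeal and fibroblast genes had a positive log2 fold change, with a median of 0.598, which was 0.324 without left TG7.3.2, 0.941 without left TG9.2.2 and 0.926 without right TG9.1.3. Igf2 was the only call, and it was lost without left TG7.3.2 (log2 fold change 1.33), right TG9.1.3 (2.72) or right TG9.2.1 (3.23). Of 12 microglial genes, 9 were positive and 1, the fractalkine receptor gene Cx3cr1, was called at 0.446, 0.457 and 0.903 CPM on the left and at 0.138, 0.125 and 0.281 CPM on the right, and the median of 0.384 became -0.193 without left TG9.1.4. The call of Cx3cr1 was lost in 5 of the 6 fits that left out a library, and also without the filter on low counts (1.73). Summed microglial markers were at 11.3 to 15.1 CPM on the left and at 9.97 to 10.4 CPM on the right. Angptl2, Angptl4 and Igfbp7 are made by vascular and meningeal cells as well as by other cells, and left TG7.3.2 and TG9.1.4 held their highest values. Whether non-neuronal RNA has a part in those 3 results was not tested. Astrocyte and oligodendrocyte lineage genes, 16 of each, gave no call, with medians of -0.00876 and 0.116. Of 19 interneuron genes, 13 had a positive and 6 a negative log2 fold change, with a median of 0.15, and 2 were called, Nos1 and Pvalb, the calcium-binding protein of fast-spiking cells, at 0.862, 0.527 and 1.24 CPM on the left and at 0.277, 0.427 and 0.362 CPM on the right. The call of Pvalb was lost in 5 of those 6 fits. Gad1 and Gad2, which make GABA, had log2 fold changes of -0.29 ± 0.17 and 0.19 ± 0.48 and were not called. Neither were Slc32a1, the vesicular GABA transporter, at -0.63 ± 0.58 and Sst, somatostatin, at 0.10 ± 0.45.

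**Figure D3:**
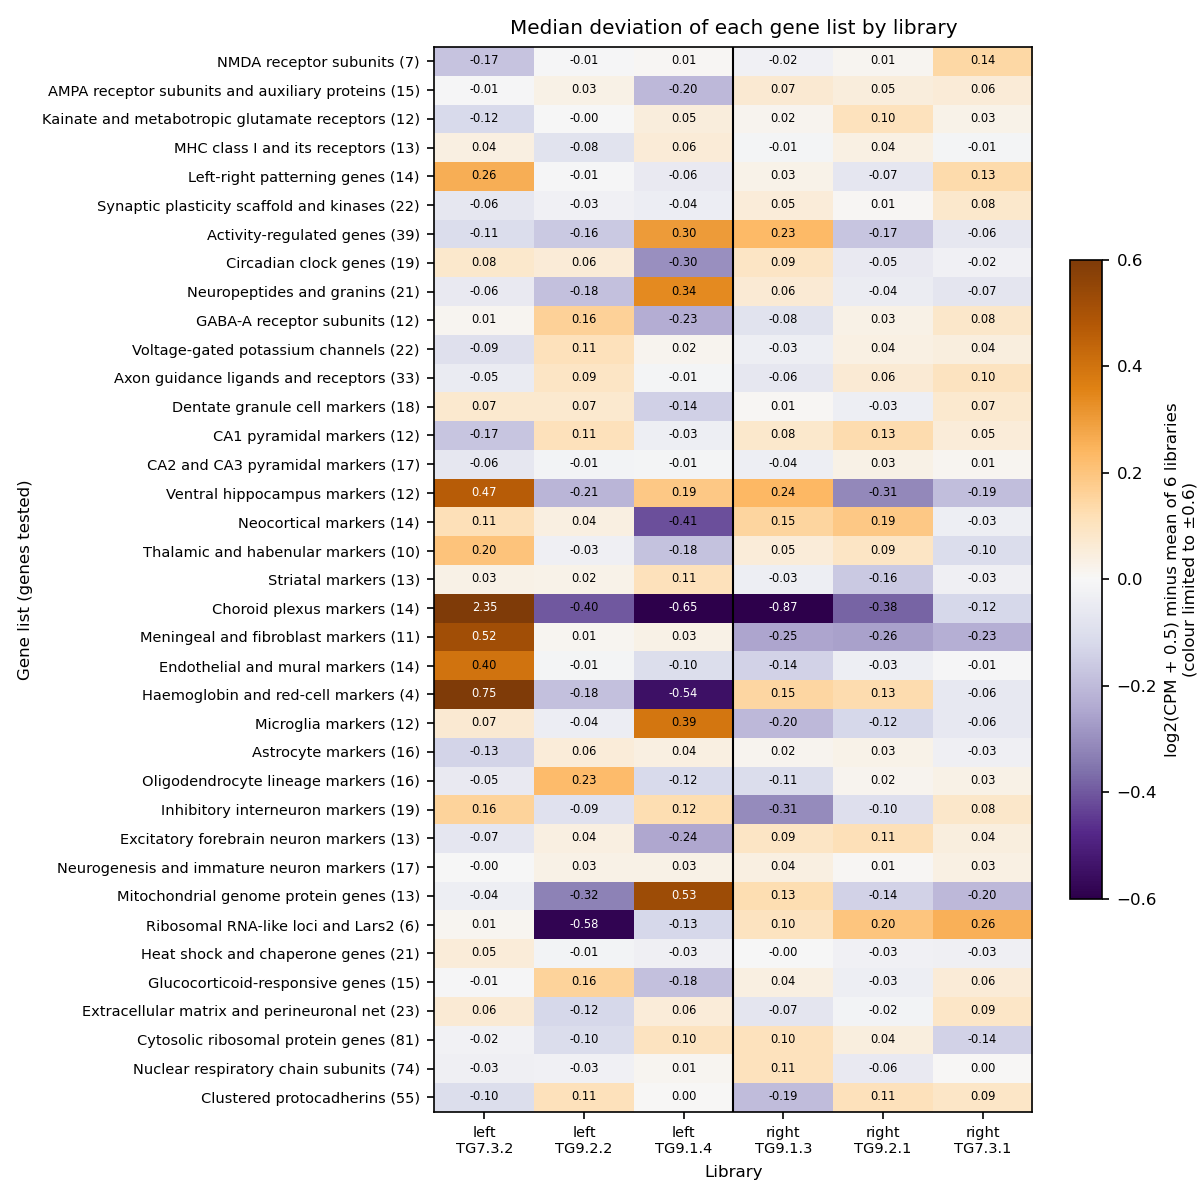
Median deviation of each of 37 gene lists in each library, as log2(CPM + 0.5) minus the mean of the 6 libraries, with the number of genes tested beside each list and the colour limited to 0.6 on either side of 0. Choroid plexus genes reach 2.35 in left TG7.3.2, and left TG9.1.4 differs from the other libraries in several neuronal lists.

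**Figure D4:**
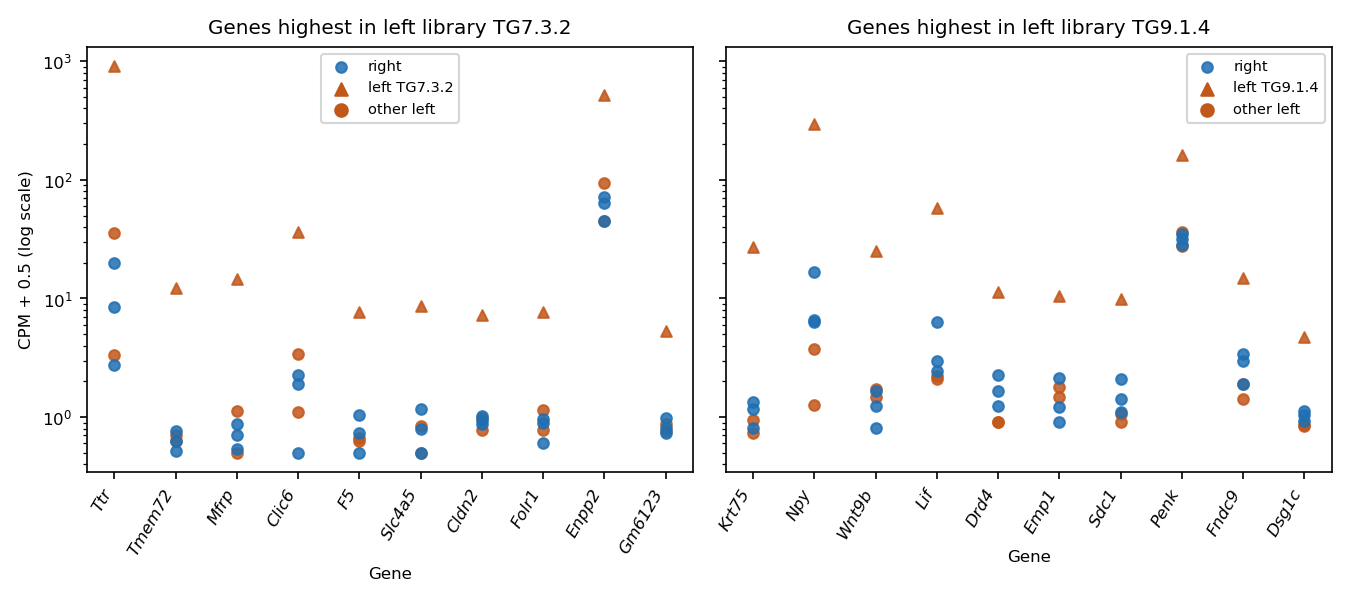
CPM + 0.5 (log scale) in each exercised library for the 10 named genes that stood furthest above all other libraries in left TG7.3.2 and in left TG9.1.4 (triangles mark that library, circles the others). In each panel the triangle lies at least 2-fold above every circle, which is how the genes were chosen.

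The remaining lists held few calls. Neuropeptide and granin genes had 3 among 21: Gal and Trh on the left and Nmb on the right. Trh, the thyrotropin-releasing hormone precursor, was at 9.19, 0.141 and 8.39 CPM on the left and at 1.63, 0.0178 and 0.121 CPM on the right, so that 2 left libraries were high and the other was low. Nmb, neuromedin B, was at 1.277, 1.318 and 1.599 CPM against 2.38, 2.31 and 2.49 CPM, without overlap. Acan, the proteoglycan of perineuronal nets, was the only call among 23 extracellular matrix genes, at 1.86, 2.41 and 2.03 CPM against 1.015, 1.122 and 1.567 CPM. Gm23935, a small RNA locus with reads like those of ribosomal RNA, was at 76.8, 57.8 and 65.7 CPM against 92.1, 103 and 72.7 CPM, which overlap. In sedentary mice Gm23935 went the other way, with a log2 fold change of 1.02 ± 0.24. Each of these 5 calls was lost without any of 3 or more single libraries. In those fits the log2 fold changes were -0.75 to -0.72 for Nmb (-0.78 with all libraries), 0.64 to 0.79 for Acan (0.77), 2.73 to 2.95 for Trh (3.29), 0.65 to 1.41 for Gal (1.49) and -0.40 to -0.30 for Gm23935 (-0.42). The calls of Acan and Trh were also lost in DESeq2, and those of Acan and Nmb without the filter on low counts. Gal and Gm23935 lost theirs in the fit to all 12 exercised and sedentary libraries. The lists of synaptic scaffolds and kinases (22 genes), GABA-A receptors (12), potassium channels (22), axon guidance (33), neurogenesis (17), heat shock proteins (21), clustered protocadherins (55), cytosolic ribosomal proteins (81), nuclear respiratory chain subunits (74) and mitochondrial genome proteins (13) had no call. So had the markers of ventral hippocampus (12), neocortex (14), thalamus and habenula (10), striatum (13), vessels (14) and red cells (4). The vessel genes, 9 of 14 positive, had a median of 0.29, which was -0.0473 without left TG7.3.2, and the 6 tested ribosomal RNA-like genes (Lars2 among them) had a median of -0.417, which was -0.221 without left TG9.2.2.

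The left and right hippocampus of sedentary mice were compared in the same way, with no library shared with the exercised comparison. Of 17670 genes tested there, 303 (1.71%) were called in either direction and none passed adjustment in edgeR, with 440 genes at an unadjusted p under 0.05. Of the genes called higher on the left in exercised mice, 144 were tested in sedentary mice and 82 had the same sign, with 1 also called there. Of those higher on the right, 78 were tested, 45 had the same sign and 2 were also called. Across 17170 genes the log2 fold changes of the exercised and the sedentary comparison had a Spearman rho of -0.0144, over genes that are not independent of each other, and 49.24% had the same sign. The difference itself was tested as an interaction over the 12 libraries, in which 416 of 18810 genes (2.21%) were called and none passed adjustment in edgeR. At an unadjusted p under 0.05 there were 490 genes, and DESeq2 passed 2 after adjustment, Lars2 (adjusted p = 0.00105) and Gm23935 (adjusted p = 0.0385), both known to collect reads from ribosomal RNA.

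**Figure D5:**
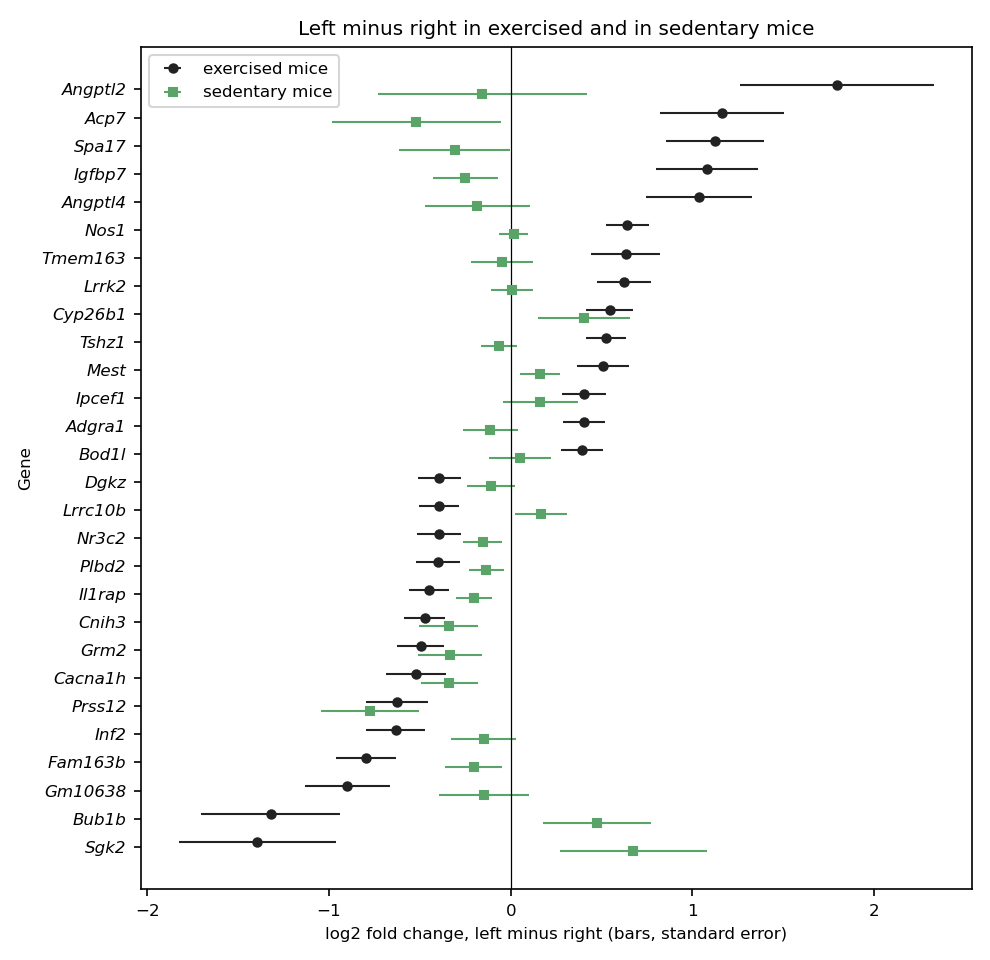
Log2 fold change (left minus right) with its standard error for 28 genes, the 14 of smallest p in each direction among called protein-coding genes of at least 1 CPM without overlap, in exercised mice (circles) and in sedentary mice (squares). The genes were chosen on the exercised values, and Prss12, Grm2, Cnih3, Cacna1h and Cyp26b1 have sedentary values nearest to them.

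Single genes fell into those with and those without a like difference in sedentary mice. Nos1 had a sedentary log2 fold change of 0.02 ± 0.08, with 109.6, 110.6 and 102.0 CPM on the left and 107.9, 100.1 and 110.8 CPM on the right, and an interaction of 0.63 ± 0.14 (unadjusted p under 0.05, edgeR adjusted p = 0.999956). The exercised right libraries of Nos1, at 67.6 to 69.0 CPM, were the ones that lay apart from the other 3 groups, although CPM of exercised and sedentary libraries were scaled in separate sets. Tshz1, Lrrk2, Spa17 and Igfbp7 had sedentary values of -0.06, 0.0064, -0.31 and -0.25 and interactions of 0.59 ± 0.15, 0.62 ± 0.18, 1.43 ± 0.40 and 1.33 ± 0.30. Of the 14 left-higher genes, 6 had the same sign in sedentary mice and 10 had an interaction p under 0.05. Of the 14 right-higher genes, 11 had the same sign and 5 had such an interaction. The interaction contains the exercised difference on which these genes were chosen, so these counts are a description. Prss12 was lower on the left in both experiments, with a sedentary log2 fold change of -0.77 ± 0.27 and an interaction of 0.15 ± 0.37. Its sedentary levels were 30.4, 28.6 and 28.8 CPM on the left and 39.5, 78.5 and 31.9 CPM on the right, where 1 library was far above the rest. Grm2, Cnih3 and Cacna1h had sedentary values of -0.33 ± 0.17, -0.34 ± 0.16 and -0.34 ± 0.16 and interactions of -0.16, -0.13 and -0.18, and none of the 3 was called in sedentary mice. Their sedentary sides overlapped. Right TG9.1.1 was the highest sedentary library for each, as for Prss12, and right TG9.2.3 lay among or below the left ones. Fam163b had -0.20 ± 0.16 in sedentary mice and an interaction of -0.59 ± 0.25 (unadjusted p under 0.05). Bub1b and Sgk2 had sedentary values of the opposite sign, 0.47 and 0.67.

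Promoter sequences were read for the genes above from RefSeq windows on GRCm38.p6, which run from 250 bases before to 50 bases after a start site. They were searched on both strands for TGACGTCA (CRE), CACGTG (E-box) and TTATGTAA (D-box) and for the serum response element, the sites of activity- and clock-controlled factors. By symbol, 108 of the 151 left-higher, 56 of the 90 right-higher and 12313 of the 17696 tested genes matched, with 150, 69 and 15787 windows. The E-box was present in 6.0% of left-higher, 7.25% of right-higher and 9.29% of all windows, and the CRE in 2.67%, 1.45% and 2.83%. The D-box was found in 0.667%, 0% and 0.621%, and the serum response element in 4 windows in all, none of a called gene. The windows of Nos1 and Fam163b, the 2 genes with the smallest p, and of Cnih3, the AMPA receptor gene called, are shown with any match in capitals. Those of Nos1 (chr5:117866589-117866888, plus strand, inside the annotated gene at chr5:117781032-117958840) and Fam163b (chr2:27142428-27142727, minus strand) held none of the 4 sites. That of Cnih3 (chr1:181352378-181352677, plus strand) held an E-box from 199 bases before the start.
Nos1: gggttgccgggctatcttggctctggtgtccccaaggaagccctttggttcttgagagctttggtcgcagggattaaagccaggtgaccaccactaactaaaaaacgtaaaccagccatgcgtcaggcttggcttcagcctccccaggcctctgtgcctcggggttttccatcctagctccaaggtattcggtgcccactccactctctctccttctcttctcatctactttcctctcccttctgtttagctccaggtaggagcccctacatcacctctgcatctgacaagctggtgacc
Fam163b: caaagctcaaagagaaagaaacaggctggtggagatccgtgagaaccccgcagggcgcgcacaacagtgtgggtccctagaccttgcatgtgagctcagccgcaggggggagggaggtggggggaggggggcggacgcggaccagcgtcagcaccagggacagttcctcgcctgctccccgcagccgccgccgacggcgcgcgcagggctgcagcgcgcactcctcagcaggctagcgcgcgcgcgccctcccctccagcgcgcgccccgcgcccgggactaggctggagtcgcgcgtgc
Cnih3: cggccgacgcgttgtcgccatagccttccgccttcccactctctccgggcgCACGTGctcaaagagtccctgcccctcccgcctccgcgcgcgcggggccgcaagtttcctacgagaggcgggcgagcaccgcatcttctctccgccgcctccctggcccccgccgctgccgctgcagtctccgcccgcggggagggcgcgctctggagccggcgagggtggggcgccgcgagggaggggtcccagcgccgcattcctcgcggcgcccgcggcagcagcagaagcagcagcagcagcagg
The Nos1 window had 54.7% G and C with 6 CpG, while Fam163b had 72% with 34 and Cnih3 75.3% with 42, against medians of 60% and 19 over the 15787 windows. The presence of these letters is a description, and the shares in called genes rest on at most 9 windows each.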

How the data were processed

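TRAP-seq was analysed in 6 libraries of exercised and 6 of sedentary mice, each from the RNA of 1 hippocampus of 1 mouse. The authors aligned paired reads to GRCm38.p6 with STAR 2.7.3a, removed duplicates with Picard 1.87, counted read pairs per gene by strand with GenomicAlignments, and deposited whole-number counts for each library without normalization. Columns were assigned to hemisphere and exercise from the study's table of mice, which ties no column to a replicate number. Another 32 columns (8 of simultaneous isolation and 24 of wild-type tissue) were not used. GENCODE annotation of GRCm38 matched 55154 of 55335 identifiers.

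Genes with few counts were removed with filterByExpr, TMM factors applied, and left compared with right by the quasi-likelihood test of edgeR 4.0.16 in R 4.3.3, fitting only the groups compared. DESeq2 1.42.0 was the alternative tool. Genes were called at an unadjusted p under 0.05 and a change above 1.3-fold, and p-values were adjusted by the Benjamini-Hochberg method over all genes. The standard error was the absolute log2 fold change over the square root of F. The steps were tested on simulated counts. Permutation tests used log2(CPM + 0.5). The counts leave a precision set by the spread between mice, which exceeded counting error in every pair of libraries.

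Named genes were, per direction, the 14 protein-coding called genes of at least 1 CPM without overlap that had the smallest p, the called members of 37 lists, 18 fixed genes, and the 3 largest changes. The members and lists were chosen with earlier results of these data known. Alternatives were other scaling and filters, all 12 libraries, no mitochondrial or ribosomal RNA-like genes, the replicate block, another fold limit and leaving out each library.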

Additional observations from a re-analysis of the deposited data

How the results depend on the processing

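The counts of called genes depended on the filter, the libraries in the fit and single libraries, and no direction of a called named gene reversed. In place of 151 left-higher and 90 right-higher genes, DESeq2 called 303 and 166 (3 after adjustment, against 0) and edgeR without a filter 345 and 156, both over 26626 genes, so that tool and filter were not separated for DESeq2, and the fit to all 12 libraries 323 and 161. Leaving out each library gave 156 to 312 left-higher and 84 to 299 right-higher genes and none after adjustment. Without left TG9.1.4 they were 312 and 299, of which 87 and 53 were among the genes first called, without left TG9.2.2 270 and 159 (98 and 47), and without left TG7.3.2 156 and 146 (57 and 44). Without right TG9.1.3, TG9.2.1 or TG7.3.1, 63, 76 and 62 of the 151 and 40, 50 and 50 of the 90 remained. The 416 interaction calls became 1047 without a filter (6 after adjustment, against 0; 2 without sedentary left TG9.2.4) and 357 to 727 over the 12 fits that left out a library, of which left TG7.3.2 gave 634, left TG9.2.2 727 and right TG9.2.1 647. Of 48 called named genes, 24 stayed called under each of their alternatives, among them Nos1 (log2 fold change 0.57 to 0.77) and Fam163b (-0.91 to -0.62). The other counts of called genes stayed within 1.5 times of those reported. With a replicate block for mice whose numbers begin alike, 131 and 74 genes were called (88 and 58 shared) and 0 after adjustment, and the interaction gave 419. Such libraries deviated together weakly or not at all (correlations of 0.174 for TG7.3, -0.125 for TG9.1 and -0.0613 for TG9.2), so the numbers were not taken to pair the mice, and the block took the call from 7 named genes (Gm23935, Nr4a1, Acan, Pvalb, Gal, Cx3cr1 and Folr1). The cause of these changes was not tested. At these depths a gene with fewer than 3 counts in a library cannot be told from an absent one.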

Other observations

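The following genes were chosen after their values were seen, for lying above or below all other exercised libraries in left TG9.1.4. Npy, neuropeptide Y, was at 298 CPM there and at 0.769 to 16.1 CPM in the other 5 libraries. Penk, the enkephalin precursor, was at 160 CPM against 27.2 to 36.1 CPM, and Lif, a cytokine of the interleukin-6 family, at 57.4 CPM against 1.6 to 5.82 CPM. The same library had 10.9 CPM of the dopamine receptor gene Drd4, 24.5 CPM of Wnt9b and 26.6 CPM of the keratin gene Krt75, where the others had at most 1.77, 1.21 and 0.844 CPM. Both Wnt9b and Krt75 were among the genes called higher on the left. Among genes lower in it, Plk5 was at 2.94 CPM against 16.6 to 28.5 CPM, and Tdo2, a tryptophan dioxygenase that marks dentate granule cells, at 0.395 CPM against 1.869 to 5.18 CPM. Calb1, calbindin, was at 43.05 CPM against 64.5 to 132 CPM. Among sedentary libraries, right TG9.1.1 had 79.1 CPM of Npy, 80.6 CPM of Penk and 10.3 CPM of Lif, and the other 5 had 1.17 to 3.05, 23.7 to 44.8 and 1.48 to 2.68 CPM.

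A few genes were chosen in the same way for lying above all other exercised libraries in left TG7.3.2. Enpp2, the secreted autotaxin, was at 522 CPM there against 44.6 to 93.5 CPM, Ace, the angiotensin-converting enzyme, at 36.35 CPM against 4.42 to 6.445 CPM, and Mfrp at 14.1 CPM against 0 to 0.633 CPM. Ttr in sedentary mice was at 954 and 1174 CPM in the left libraries TG7.3.4 and TG9.1.2 and at 1078 CPM in right TG9.2.3, and at 12.1 to 55.4 CPM in the other 3. High Ttr was therefore found in 4 of the 12 libraries, 3 of them left.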
